A study of Homo sapiens with 6 samples.

Results

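The genes described here are the MYC, MAX and MXD network, a list of 10 genes (MYC, MYCN, MYCL, MAX, MXD1, MXI1, MXD3, MXD4, MNT and MGA) out of 22411 genes tested in U87 cells. U87 is an established human glioblastoma cell line. The members were taken by symbol, as the row of the array table annotated with that single symbol, and 9 of the 10 had such a row. MXD4 had none, because its row is annotated with a second gene as well, so it has no value among the results below. Each of the other members had exactly 1 row.

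The RNA of 3 treated and 3 control samples was hybridised to 6 Affymetrix whole-transcript arrays. All cells were first cultured for 48 h in EMEM supplemented with serum and sodium pyruvate. The treated group then received a carborane-bearing amino acid at 1 mM for 48 h, while the controls are labelled as having no treatment, and no vehicle is named. Carboranes are boron-rich molecular cages. The labels do not state whether replicates were separate cultures, so the p-values reflect only how far these samples differ from each other, which may be technical. The signals are log2 values, on which a difference of 1 is a doubling of signal, and the median gene lay between 6.06 and 6.10 on each array. Signals below that range are called near background here, but no background level was measured. Over all rows of the array table, named or not, the medians were lower, at 5.18 to 5.24. The array medians named below are those of the genes tested.

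MYC, MYCN and MYCL are basic helix-loop-helix leucine zipper proteins that bind DNA only as partners of MAX, at the E-box sequence and its variants, and activate genes of growth, metabolism and ribosome production. MXD1, MXI1, MXD3, MXD4 and MNT pair with the same MAX protein, bind the same sites and recruit the SIN3 and histone deacetylase corepressor. MGA also pairs with MAX and places it in a repressive Polycomb complex. The balance between these partners is a textbook switch between cell growth and quiescence or differentiation, and MYC is a well-known oncogene in glioma.

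After treatment the repressor partner MXD1 rose 9.78-fold and MXI1 3.10-fold, whereas MYC and MAX themselves rose 1.74-fold and 1.81-fold. MGA and MNT rose less. MYCN was not called, and MYCL and MXD3 moved by little, near background. In total, 7 of 9 members were called higher and 1 lower (limma, Benjamini-Hochberg adjusted p under 0.05 over all 22411 genes). Of all genes tested, 45.6% were called, 24.0% higher and 21.6% lower. Among genes at or above the median level, 40.1% were called higher and 34.7% lower, and all 6 members at that level (MYC, MAX, MXD1, MXI1, MNT and MGA) were higher. The median log2 change of the 9 members was 0.68, against 0.01 for all genes.

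**Figure D1:**
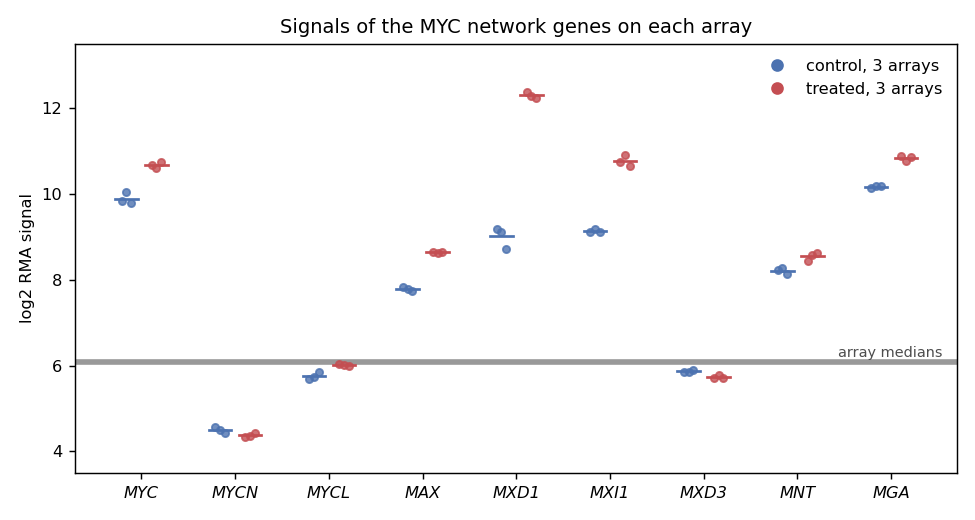
Log2 RMA signal (vertical axis) of the 9 measured members (horizontal axis) on each of 3 control (blue) and 3 treated (red) arrays, with group means as short lines and the range of array medians as a grey band. The 3 treated MXD1 values, 12.25 to 12.37, sit above the 3 control values, 8.73 to 9.19, and MYCN, MYCL and MXD3 lie below the band.

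MXD1, a repressor partner of MAX that is induced as many cell types differentiate, had the largest change of the network. Its control signals were 9.19, 9.12 and 8.73, and its treated signals were 12.37, 12.29 and 12.25. The groups did not overlap, as in 53.5% of all genes tested, and control replicate 3 lay below the other controls. The log2 change was 3.29 (limma adjusted p = 8.78e-07, SE 0.12, 95% interval 3.01 to 3.57), and 0.741% of all genes had a larger change in either direction. Without control replicate 3 the log2 change was 3.15. Some deposited signals exceed what a scanner can read, and with the scale compressed so that no value exceeds 16 the log2 changes were 2.50 for MXD1, 1.24 for MXI1 and 0.61 for MYC, so the folds above depend on the scale.

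MXI1, also known as MXD2, is a second MAX partner of the same family. It stood at 9.12, 9.19 and 9.11 in the controls and at 10.75, 10.92 and 10.65 after treatment. Every treated array was above every control. The log2 change was 1.63 (limma adjusted p = 2.34e-06, SE 0.07, 95% interval 1.46 to 1.81), and 4.05% of genes changed by more. MXD3, a family member known from proliferating cells, gave 5.86, 5.85 and 5.89 in the controls and 5.71, 5.78 and 5.71 after treatment. Both groups lay below the array medians and did not overlap. The log2 change of -0.13 (limma adjusted p = 0.0351, SE 0.04) lost its call in 10 of 14 other settings, including the omission of any single array but treated replicate 2, with adjusted p from 0.0352 to 0.134 over all 14, and 55.6% of genes had a larger change.

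Of the MYC genes, MYC, the broadly expressed member, had control signals of 9.83, 10.04 and 9.79 and treated signals of 10.69, 10.62 and 10.74. All treated arrays were higher than all control arrays, and control replicate 2 was the highest control. The log2 change was 0.80 (limma adjusted p = 9.48e-05, SE 0.07, 95% interval 0.62 to 0.97), a size that 14.0% of all genes exceeded. MYCN, the neural paralogue amplified in neuroblastoma, was at 4.57, 4.50 and 4.44 in the controls and 4.34, 4.36 and 4.44 after treatment. These groups touched at 4.44, well below the array medians. Its log2 change of -0.12 was not called (95% interval -0.25 to 0.00013, adjusted p = 0.0987 by limma). MYCL, the paralogue first found in small-cell lung cancer, was at 5.69, 5.74 and 5.86 in the controls and 6.04, 6.01 and 6.00 after treatment. Both groups were below the array medians, without overlap, and the log2 change was 0.25 (limma adjusted p = 0.00680, SE 0.05).

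MAX, the shared partner of the other members, had signals of 7.84, 7.78 and 7.74 in the controls and 8.66, 8.62 and 8.64 in treated cells. The groups were apart, with a log2 change of 0.85 (limma adjusted p = 4.21e-06, SE 0.04, 95% interval 0.75 to 0.96). The array has 1 row for MAX and 1 for MXI1, so their transcript isoforms were not told apart.

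MNT, the broadly expressed MAX partner that opposes MYC in growing cells, stood at 8.22, 8.27 and 8.14 in the controls and at 8.43, 8.58 and 8.63 after treatment. The groups did not overlap, but the gap between the nearest arrays was small. The log2 change was 0.34 (limma adjusted p = 0.00444, SE 0.07, 95% interval 0.18 to 0.49), and 33.1% of all genes changed by more. MGA, the giant member that carries a T-box domain beside its helix-loop-helix, gave 10.15, 10.18 and 10.18 in the controls and 10.90, 10.78 and 10.86 after treatment. Its treated values were all higher, with a log2 change of 0.68 (limma adjusted p = 1.72e-05, SE 0.05, 95% interval 0.57 to 0.79).

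**Figure D2:**
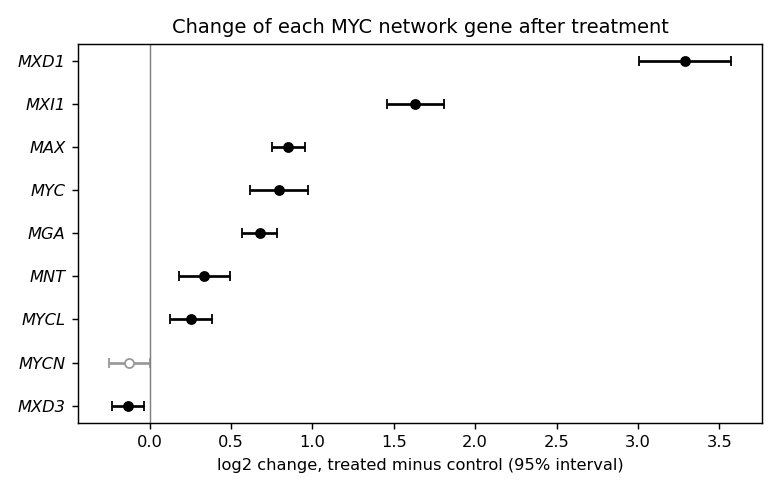
Log2 change from control to treated cells (horizontal axis) with its 95% interval from limma for each of the 9 members, ordered by change. Filled points were called and the open point, MYCN, was not. MXD1 at 3.29 and MXI1 at 1.63 lie to the right of all others, and MAX at 0.85 and MYC at 0.80 have overlapping intervals.

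The changes of the members above background were compared for 6 pairs within arrays as the log2 difference between both signals. The change of MXD1 exceeded that of MYC by 2.49, since the difference between their signals moved from -0.87 ± 0.21 in the controls to 1.62 ± 0.10 in treated cells (SD, n = 3 each, exact two-sided permutation p = 0.10). MXD1 also rose by 1.66 more than MXI1, and MXI1 by 0.84 more than MYC. The changes of MAX and MYC differed by 0.06, with overlapping groups (exact permutation p = 0.70). MGA rose by 0.18 less than MAX and MNT by 0.34 less than MGA. The 5 pairs other than MAX and MYC did not overlap between groups, and neither did 53.5% of single genes. The share among other gene pairs was not computed. Each of the 5 gave an exact permutation p of 0.10, the smallest that 3 arrays against 3 allow, or 0.12 adjusted over the 6 pairs. No rule set the choice of the 6, and the adjustment does not cover other pairs of members.

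The genes whose profile was most like that of MYC were SYNGR2, TMEM259, MEF2C, GXYLT2 and CES2. Likeness was the root mean square difference over the 6 arrays of log2 signals taken relative to each gene's own control mean. It was computed for 10703 genes at or above the median level, leaving out symbols that begin with LOC, LINC, MIR or SNOR. The 5 genes lay between 0.0279 and 0.0574. Their log2 changes were 0.77 to 0.80, close to that of MYC, since this measure mostly matches genes by the size of their change. For MXD1 the 5 most alike were ELOVL7, SLC22A15, DDIT3, GCH1 and KDM7A, at 0.0986 to 0.142, with log2 changes of 3.33 to 3.44. DDIT3 encodes the stress transcription factor CHOP, ELOVL7 a fatty acid elongase and GCH1 the first enzyme of tetrahydrobiopterin synthesis.

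RefSeq promoter windows on GRCh38.p14, from 250 bases before to 50 bases after a transcript start, were at hand for 9 of the 10 listed genes (14 windows, 3 each for MXI1 and MGA and 2 for MAX). MYC had no entry. They were searched on both strands for CACGTG, the E-box bound by MYC-MAX and MXD-MAX pairs, and for GGGCGG, the GC box bound by Sp1-type factors. All 9 genes held a GC box in at least 1 window, and 2, MNT and MXD4, held an E-box. Of 27305 genes with windows, 48.3% held a GC box and 8.77% an E-box, and of those tested on the arrays 62.9% and 10.5%. Both windows below are shown in gene orientation with these motifs in capitals, MXD1 because it rose most and MNT because it was the measured member with an E-box. The MXD1 window is chr2:69914859-69915158 on the plus strand, is 65.0% GC, and has GC boxes that begin 123 and 53 bases before the start. The MNT window is chr17:2401011-2401310 on the minus strand, is 76.0% GC, and has its E-box 193 bases before the start.
MXD1: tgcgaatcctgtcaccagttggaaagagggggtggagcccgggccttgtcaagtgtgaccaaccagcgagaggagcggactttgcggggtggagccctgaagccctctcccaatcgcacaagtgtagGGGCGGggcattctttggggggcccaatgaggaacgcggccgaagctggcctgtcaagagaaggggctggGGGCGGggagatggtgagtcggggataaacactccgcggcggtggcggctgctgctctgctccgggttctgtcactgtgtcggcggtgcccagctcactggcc
MNT: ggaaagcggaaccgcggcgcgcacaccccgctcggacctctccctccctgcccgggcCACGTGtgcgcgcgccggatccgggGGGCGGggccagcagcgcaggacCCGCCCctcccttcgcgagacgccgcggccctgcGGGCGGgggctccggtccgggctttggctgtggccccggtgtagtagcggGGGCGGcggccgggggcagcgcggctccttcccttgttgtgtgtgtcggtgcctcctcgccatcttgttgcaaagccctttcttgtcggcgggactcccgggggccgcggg
The capitals are matches of letters and do not show that a factor binds there. For TGACTCA, the AP-1 site, 1 of the 9 genes had a match (MXD3), against 6.05% of genes, and for TTCCCGCC, an E2F site, 0 of 9 had one, against 3.79%. No conclusion about either factor follows from these windows.

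Targets that MYC is known to induce fell more often than they rose. Of 42 listed, 37 were measured, of which 27 fell and 7 rose, with the other 3 left uncalled, which is 73.0% lower and 18.9% higher against 21.6% and 24.0% of all genes. At or above the median level, where 35 of the 37 lie, 34.7% of genes were lower and 40.1% higher. Their median log2 change was -0.56. IMPDH2, the rate-limiting enzyme of guanine nucleotide synthesis, went from 10.40, 10.38 and 10.43 in the controls to 8.05, 8.03 and 7.98, a log2 change of -2.38 (limma adjusted p = 4.37e-08, SE 0.04). LDHA, the lactate dehydrogenase subunit, fell by 1.58 on the log2 scale, FBL, the nucleolar methyltransferase fibrillarin, by 1.33, and the glycolytic enolase ENO1 by 1.22.

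The 7 targets that rose were ODC1, SHMT2, SLC1A5, HK2, SLC7A5, BCAT1 and CCND2. ODC1, the polyamine synthesis enzyme and a classic MYC target, rose by 0.91 on the log2 scale (limma adjusted p = 1.99e-05, SE 0.06), from 14.60, 14.75 and 14.73 in the controls to 15.69, 15.61 and 15.52. SHMT2, the mitochondrial serine enzyme, rose by 1.10, SLC1A5, a glutamine carrier, by 1.09 and the hexokinase HK2 by 0.72. SLC7A5, the large neutral amino acid exchanger, rose by 2.08 (limma adjusted p = 0.00169, SE 0.34), but its controls were at 12.23, 11.89 and 10.81, so that control replicate 3 was far below the others. Without that array its log2 change was 1.67. The call of CCND2, near background, was lost without treated replicate 3 (limma adjusted p = 0.0597), control replicate 1 (0.0673) or control replicate 3 (0.0743). SLC7A5, BCAT1 and CCND2 were named after their values were seen.

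**Figure D3:**
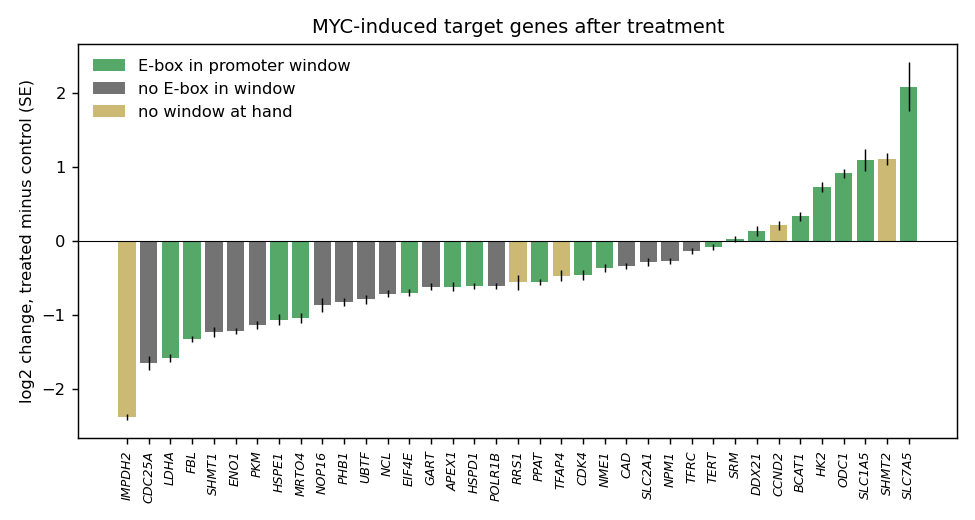
Log2 change from control to treated cells (vertical axis, bars from 0, with the limma SE) for the 37 measured MYC-induced targets, ordered by change and coloured by whether the RefSeq promoter window holds an E-box. The bars run from -2.38 for IMPDH2 to 2.08 for SLC7A5, and green bars with an E-box stand on both sides of 0.

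Among the 32 measured targets with a promoter window, 18 (56.2%) held an E-box, against 10.5% of all genes tested that had a window. The list was drawn from genes known as MYC targets, so this share is no independent result. Of the 18 with an E-box, 10 fell and 5 rose, with a median log2 change of -0.42, and of the 14 without one, 14 fell and 0 rose (0 also at an unadjusted p under 0.05), with a median of -0.75. Of the 14, the transferrin receptor gene TFRC (log2 change -0.13), lost its call in 5 of the 6 omissions of a single array (limma adjusted p 0.0645 to 0.107). Over all genes tested, 26.5% of the 1615 with an E-box fell and 31.7% rose, and 24.3% of the 13759 without one fell and 25.8% rose. An E-box of each of 3 targets that rose and 4 that fell is printed below with 10 bases on each side, in gene orientation with the E-box in capitals. These are shown because the same 6 letters are found in targets that moved in opposite directions. ODC1 and LDHA each have another E-box in the window, which is not printed.
SLC7A5: ccggacgacgCACGTGctccgagctg
SLC1A5: cgggagtggtCACGTGgacaggacgg
ODC1: gggccccgggCACGTGtgcggcgcgc
LDHA: actcccagcgCACGTGgagcagtctg
FBL: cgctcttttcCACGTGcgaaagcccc
MRTO4: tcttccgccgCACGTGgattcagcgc
HSPE1: gtgattttttCACGTGtcgccagggc
The first 3 rose and the last 4 fell. On GRCh38.p14 the stretches are chr16:87869622-87869647, chr19:46787328-46787353 and chr2:10448026-10448051, all on the minus strand, then chr11:18394368-18394393 on the plus strand, chr19:39846358-39846383 on the minus strand, and chr1:19251809-19251834 and chr2:197500347-197500372 on the plus strand. The HSPE1 site is shared with HSPD1, which is read from the other strand, and the log2 changes of these chaperonin genes were -1.07 and -0.61. MRTO4, a ribosome assembly factor, had a log2 change of -1.05.

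Of 12 listed genes that MYC is known to repress, 10 were measured, of which 4 rose and 2 fell, and the median log2 change was 0.04. DDIT3 rose by 3.40, the growth arrest gene GADD45A by 2.44, and the cyclin-dependent kinase inhibitors CDKN1A (p21) and CDKN1B (p27) by 1.02 and 0.19. The call of CDKN1B was lost without control replicate 1 (limma adjusted p = 0.0673) or 3 (0.0561). THBS1, the matrix protein thrombospondin 1, fell by 3.68 and the receptor PDGFRB by 0.66. The shares of 40.0% higher and 20.0% lower compare with 24.0% and 21.6% of all genes, and with 40.1% and 34.7% of genes at or above the median level, where 8 of the 10 lie.

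Of 13 measured subunits of the corepressor that MXD proteins and MNT recruit, 3 rose (23.1%) and 5 fell (38.5%), and the median log2 change was -0.16. All 13 lie at or above the median level, as do all measured genes of the PRC1.6, coactivator and turnover lists below, and at that level 40.1% of genes were called higher and 34.7% lower. The deacetylase HDAC1 went from 10.40, 10.40 and 10.46 to 9.08, 9.04 and 8.97, a log2 change of -1.39 (limma adjusted p = 6.17e-07, SE 0.05), while the scaffold SIN3B rose by 0.60, ING1 by 0.53 and ARID4B by 0.44. SAP30 had a log2 change of -0.64, SUDS3 of -0.50 and RBBP7 of -0.44. The other scaffold, SIN3A, was not called, at 0.03 on the log2 scale.

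The Polycomb complex PRC1.6, in which MGA sits, had 5 of 11 measured subunits higher and 5 lower, or 45.5% each way, near the shares of genes at that level, with a median of -0.11. RYBP, a subunit that stimulates histone ubiquitination, rose from 9.32, 9.57 and 9.55 to 11.76, 11.77 and 11.90, a log2 change of 2.33 (limma adjusted p = 6.86e-07, SE 0.08). The repressor E2F6, which binds DNA for the complex, rose by 0.67 and its partner TFDP2 by 0.76, whereas the partner TFDP1 fell by 1.41. CBX3 had a log2 change of -1.08, L3MBTL2 of -0.92 and CBX1 of -0.63. PCGF6, the defining subunit, rose by 0.16. Without treated replicate 3 or control replicate 1 its call was lost (limma adjusted p = 0.0517 and 0.0593), and 3 subunits were called higher in either case. The call of the ligase subunit RING1 was lost in 4 of the 6 omissions of a single array (limma adjusted p 0.0720 to 0.0753).

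In the related MLX branch, where MLX takes the place of MAX, MLX fell by 0.46 and its partner MLXIP (MondoA) by 0.25. MLXIPL (ChREBP) rose by 0.35, with both groups below the array medians. ZBTB17, the zinc finger protein MIZ1 through which MYC represses genes, rose by 0.22. MYCBP2, a large ubiquitin ligase named for binding MYC, fell by 1.05, and MYCNOS and MYCBPAP, near background, were not called.

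**Figure D4:**
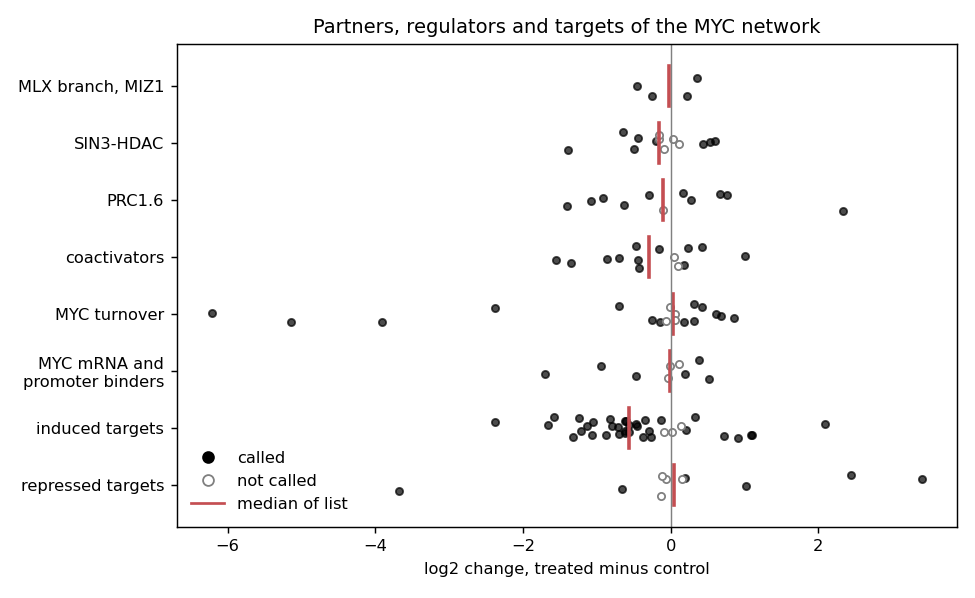
Log2 change from control to treated cells (horizontal axis) of each measured gene in 8 lists of partners, regulators and targets of the network, with filled points for called genes, open points for genes not called and red lines for list medians. The medians run from -0.56 for the induced targets to 0.04 for the repressed targets, and the 3 points furthest left are PLK1, CIP2A and AURKA.

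Of 14 measured coactivators and elongation factors of MYC, 8 fell (57.1%) and 4 rose (28.6%), against 34.7% and 40.1% of genes at that level, with a median of -0.30. The paired ATPases RUVBL1 and RUVBL2 fell by 1.55 and 1.35, the actin-like subunit ACTL6A by 0.87 and HCFC1 by 0.70. The acetyltransferase CREBBP rose by 1.01 and the elongation cyclin CCNT1 by 0.42, with EP400 at 0.24 and SUPT5H at 0.19. Without control replicate 1 SUPT5H was not called (limma adjusted p = 0.0550).

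Of 18 measured factors of MYC protein turnover, 7 rose and 7 fell, or 38.9% each way, near the 40.1% and 34.7% of genes at that level, with a median log2 change of 0.03. Of the 7 that fell, TRIM32 lost its call in 4 of the 6 omissions of a single array and SET in 5 (limma adjusted p of the lost calls 0.0571 to 0.125). FBXW7, the ubiquitin ligase subunit that marks phosphorylated MYC for degradation, rose from 8.04, 8.03 and 8.04 to 8.74, 8.70 and 8.71, a log2 change of 0.68 (limma adjusted p = 6.10e-06, SE 0.04). GSK3B, the kinase that creates the mark FBXW7 reads, rose by 0.43, BTRC by 0.62 and the deubiquitinase USP36, which protects MYC, by 0.86. The falls reached further, with a log2 change of -6.21 for the mitotic kinase PLK1, -5.14 for the phosphatase inhibitor CIP2A and -3.92 for the mitotic kinase AURKA, all known to stabilise MYC or its paralogues. SKP2, a ligase that both degrades and activates MYC, fell by 2.39.

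Among RNA- and DNA-binding regulators of MYC itself, 3 of 9 measured rose and 3 fell, or 33.3% each way, against 24.0% and 21.6% of all genes and 40.1% and 34.7% at or above the median level, where 8 of the 9 lie. IGF2BP3, which stabilises MYC mRNA, fell by 1.71, the mRNA decay factor HNRNPD (AUF1) by 0.95 and ELAVL1 (HuR) by 0.47. CELF1 rose by 0.52, IGF2BP2 by 0.39 and FUBP1, which binds upstream of MYC, by 0.19.

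Proliferation genes were listed too, of which PLK1 is also in the turnover list above. All 7 measured (MKI67, TOP2A, CCNA2, PLK1, MCM3, MCM5 and PCNA) fell, with a median log2 change of -6.21, and the mean of their signals went from 13.09 to 13.18 on the control arrays to 7.54 to 7.58 on the treated arrays. Their part in the changes of the network was not tested. Arrays of bulk RNA that were brought to 1 common distribution cannot tell a change in the number of cells from a change in RNA per cell. The common reference genes changed as well, with log2 changes of -1.46 for ACTB, -0.51 for GAPDH and 0.34 for TBP.

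Pearson correlations of all genes tested were 0.998 between arrays of 1 group and 0.959 to 0.963 between groups. Of 8 markers of glioblastoma lines, VIM, CD44, CHI3L1 and NES were above the array medians in the controls, and the neural markers GFAP, S100B, SOX2 and OLIG2 were below them. After treatment CHI3L1 fell by 2.86, NES by 1.89 to a level below the array medians, and VIM by 0.70, while CD44 rose by 0.44 and OLIG2, still near background, by 0.37. Of 9 markers of leukocytes, endothelium, epithelium and neurons, 7 lay below the array medians in both groups. CD68 and SYT1 were above. CD68, a leukocyte marker, stood at 16.08 to 16.11 in the controls and 16.09 to 16.15 after treatment, beyond the 16 of a 16-bit scanner. The neuronal gene SYT1 rose by 0.80 and the epithelial gene EPCAM, near background, fell by 0.20, while CD68 was not called, at a log2 change of 0.02. The part of SYT1 in the other results was not tested. The mean of the 9 was 6.37 to 6.41 on control arrays and 6.41 to 6.46 on treated arrays.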

How the data were processed

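According to the submitters' processing notes, the authors summarised each transcript cluster as a log2 signal by RMA, run in Transcriptome Analysis Console 4.0.1.36. This includes background correction and quantile normalization. Deposited values ran from 2.44 to 19.46. On each array 181 to 196 of them exceeded 16, the limit of a 16-bit scanner, so the size of a change may be stretched. No source used here names the genome build.

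The platform annotation gave 1 symbol to 23781 of 67528 rows, updated through RefSeq (GRCh38.p14), and each of 22411 genes was represented by its row with the highest mean. limma 3.58.1 (R 4.3.3, lmFit and eBayes) tested treated against control without filtering by level, and calls required an adjusted p under 0.05 (Benjamini-Hochberg, all genes). The limma script was tested on simulated data. Figures used matplotlib 3.10.9. With arrays, precision is limited by their number.

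The members and gene lists were chosen with earlier results of these data known. Named genes were all members and, from each other list, up to 4 called genes per direction with the smallest adjusted p. The rule also named TBP, ACTB and GAPDH for reference and the genes most like MYC and MXD1. Further genes, such as the remaining markers and proliferation genes, SIN3A, HSPD1, HSPE1, MRTO4, SLC7A5, BCAT1, CCND2, TFRC, TRIM32, SET, RING1, MYCNOS and MYCBPAP, were named outside it. Listed genes without a row of 1 symbol were not used. Deviations of arrays with the same replicate number correlated at -0.08, 0.04 and -0.05, so the numbers were not taken to pair samples. Alternatives are given in the closing section.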

Additional observations from a re-analysis of the deposited data

Results flagged for a closer look

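The table row annotated with both MXD4, a MAX partner of the MXD family, and MIR4800, a microRNA gene, is outside the comparisons above, because a signal with more than 1 gene symbol is not assigned to a gene. It drew attention because its treated signals were above its controls. Separation of the groups, in either direction, was also seen in 53.5% of all genes tested, so it does not set this row apart. The controls were at 7.83, 7.78 and 7.66 and the treated arrays at 8.25, 8.20 and 8.30. The log2 change was 0.49 (SE 0.07, limma adjusted p = 0.00180 over 67528 rows). Which of the annotated genes the signal belongs to was not tested. No group had the 4 samples needed to test for a single outlying array.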

How the results depend on the processing

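MYC, MAX, MXD1, MXI1, MNT and MGA kept their direction and their call in all 15 other settings, and MYCL in all 14 in which it was tested. Over these settings the log2 change ran from 2.50 to 3.38 for MXD1, 1.24 to 1.70 for MXI1, 0.61 to 0.87 for MYC and 0.65 to 0.88 for MAX. The lowest values came from the scale compressed to a highest value of 16. With a log2 change of at least 1 required as well, 1116 genes were higher and 1108 lower, and among the members 2 were higher (MXD1 and MXI1) and 0 lower.

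MXD3 was the member whose call was lost. Its log2 change was -0.13 with the replicate block and with all rows tested, -0.11 with arrays centred on their median and with quantile normalization repeated, and -0.10 on the compressed scale. Leaving out 1 array gave -0.16 to -0.12, and the number of members called lower was then 0 to 1. In limma's fit 0 members were called lower with the replicate block, with all rows tested, with centring, with quantile normalization or on the compressed scale, and 1 to 2 members were lower at an unadjusted p under 0.05. With dim genes removed MXD3 was not tested and 0 members were lower. Of the MLX-branch genes and ZBTB17, 1 was then called higher, against 2 with dim genes kept. Apart from that filter, the cause was not tested.

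The number of PRC1.6 genes called higher ran from 3 to 5 when 1 array was left out. The replicate block changed no other call of a member. Signals near background limit MYCN, MYCL and MXD3.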
